A study of Mus musculus with 2 samples.

Results

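The variable (V) segments of the locus that encodes the T cell receptor alpha and delta chains were examined in chromatin of the mouse thymus, the organ in which T cells mature. Members were all genes that GENCODE M21 types as T cell receptor V genes or V pseudogenes on chromosome 14, which gave 136 segments (115 genes and 21 pseudogenes) of 55413 annotated genes. They comprise 120 Trav segments, 10 Trav-dv segments, which both chains can use, and 6 Trdv segments. They span 1721.37 kb (mm10, chr14:52427928-54149294) and all lie on the plus strand except Trdv5, which is on the minus strand. Accessible DNA was mapped by DNase-seq, in which DNase I cuts open chromatin and the cut ends are sequenced. The 2 libraries, biological replicates 1 and 2, form 1 group: thymus from female B6CASTF1/J mice (a cross of B6 with CAST) at 18 to 20 months of age, with no treatment named. Their records share a donor entry and differ in biosample entry, and since no label speaks of separate animals, the spread between them may be technical. There is no second condition, so nothing below compares ages, sexes or tissues.

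A T cell receptor alpha chain is made by joining 1 V segment to 1 joining (J) segment, and a delta chain by joining V, diversity and J segments. The RAG1 and RAG2 recombinase cuts at a recombination signal that follows each V segment: a heptamer (consensus CACAGTG), a spacer of about 23 bases and a nonamer (consensus ACAAAAACC). Delta genes rearrange earlier in thymocyte development than alpha genes, and later alpha joins can replace earlier ones with segments farther out. Each V segment has its own promoter, and transcription across the locus and loops held by CTCF and cohesin are known to take part in bringing segments to RAG. Joining also deletes DNA in between, so how many copies of each segment the tissue still held is not known here.

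The peak sequences on which the account turns are printed first, each from GRCm38 on the plus strand, as called in replicate 1. The start-side peaks of 3 segments with strong signal show the promoter end. Capitals mark the letters found of ETS (GGAAGT) and E-box (CAGCTG) in Trav1, of RUNX (TGTGGT) in B230359F08Rik, which RefSeq names Trav13-5, and of CTCF (up to 1 mismatch) and the E-box CAGCTG in Trav10d, on either strand. Their positions are chr14:52427781-52428000 for Trav1, chr14:53795241-53795480 for B230359F08Rik and chr14:52810681-52810880 for Trav10d.
Trav1: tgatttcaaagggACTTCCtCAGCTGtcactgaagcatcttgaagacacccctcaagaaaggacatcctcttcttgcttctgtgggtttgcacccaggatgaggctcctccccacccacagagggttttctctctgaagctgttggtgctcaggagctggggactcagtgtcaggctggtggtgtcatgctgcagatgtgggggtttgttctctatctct
B230359F08Rik: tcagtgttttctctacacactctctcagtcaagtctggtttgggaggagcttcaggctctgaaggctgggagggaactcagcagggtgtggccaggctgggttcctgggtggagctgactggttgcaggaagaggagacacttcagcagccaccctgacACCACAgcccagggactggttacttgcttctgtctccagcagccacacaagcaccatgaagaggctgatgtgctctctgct
Trav10d: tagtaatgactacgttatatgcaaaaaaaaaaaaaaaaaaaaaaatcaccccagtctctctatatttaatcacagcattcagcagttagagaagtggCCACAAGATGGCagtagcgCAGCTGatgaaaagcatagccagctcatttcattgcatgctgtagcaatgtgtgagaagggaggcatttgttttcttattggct
The 3 end-side peaks with the highest mean signal carry the recombination signal, with heptamer and nonamer in capitals. They lie at chr14:53364061-53364240 for Trav13n-4, chr14:53560241-53560440 for Trav15-1-dv6-1 and chr14:53876701-53876860 for Trav21-dv12.
Trav13n-4: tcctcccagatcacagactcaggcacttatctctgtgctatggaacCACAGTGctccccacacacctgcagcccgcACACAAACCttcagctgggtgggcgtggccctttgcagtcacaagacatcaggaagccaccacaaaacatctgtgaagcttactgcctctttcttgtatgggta
Trav15-1-dv6-1: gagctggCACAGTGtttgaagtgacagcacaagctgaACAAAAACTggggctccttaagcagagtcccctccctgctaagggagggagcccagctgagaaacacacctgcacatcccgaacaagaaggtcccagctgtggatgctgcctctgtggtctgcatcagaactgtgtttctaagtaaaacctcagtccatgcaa
Trav21-dv12: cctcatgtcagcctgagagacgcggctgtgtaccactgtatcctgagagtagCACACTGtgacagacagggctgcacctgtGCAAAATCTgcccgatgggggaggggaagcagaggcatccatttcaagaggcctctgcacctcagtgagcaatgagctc

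A segment was called open where the shorter of the deposited peak lists placed a peak within 500 bp of it in both libraries. This held for 36 of 136 segments, 26.5% (exact 95% binomial interval 19.3% to 34.7%, which treats segments as independent although many are near-copies). The same rule called 31.6% of all other annotated genes, 7.02% of other genes within the segments' range of lengths (155 to 1840 bp), and 2.08% of genome windows 1530 bp wide. It called 8.61% of the 418 V segments of other antigen receptor loci: 20.0% of 35 at Tcrb, 14.3% of 7 at Tcrg, 14.4% of 194 at Igh and 0.0% of 176 at Igk among them. Taken singly, replicate 2 had peaks at 41 segments and replicate 1 at 48, and 83 segments had none in either library. Only 11 segments were open by peaks at or above their library's median signal, and 20 by peaks that overlapped the segment itself. In a bulk tissue, fewer cells with an open segment and fewer cuts per cell cannot be told apart.

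Both libraries carried 49872 to 50648 peaks in the shorter list. Sequencing depth is unknown, since no file gives it. The labelled tissue was checked at the start sites of defining genes: 12 of 13 thymocyte markers had a peak within 500 bp of the start in both libraries, and the remaining 1, Cd4, only in replicate 2. None of 5 B cell markers and none of 4 myeloid markers did so in both libraries, although 2 and 1 of them did in either. By the same rule 24.2% of all annotated genes other than the V segments, of every type, had such a peak in both libraries.

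The open V segments had mostly modest peaks. The strongest peak within 500 bp reached a median signal of 1.49 in replicate 1 and 1.02 in replicate 2 over the 36 open segments, below the medians of all peaks, 1.66 and 1.43. Only 13 open segments in replicate 1 and 15 in replicate 2 exceeded their library's median peak. Signal is the authors' value per peak on an unstated scale, so the values of the libraries are given side by side, and their mean, taken as deposited, serves only to rank segments. Trav1, the segment farthest from the constant region, had the highest signal in both libraries, 4.69 in replicate 1 and 6.76 in replicate 2, from a peak 220 bp wide over its start (chr14:52427781-52428000). That places it at or above 82.7% and 90.5% of all peaks of those libraries.

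The rest of the 10 segments with the highest mean signal follow. Trav13n-4 had 3.28 and 3.99 in replicates 1 and 2, and Trav15-1-dv6-1 had 2.58 and 3.24. Both values come from the end of the segment, over the recombination signal. B230359F08Rik had 2.34 and 3.05, Trav10d 3.41 and 1.96, and Trav2 2.29 and 2.86, all from start-side peaks. Trav21-dv12 had 2.49 and 1.86 and Trav13d-3 had 1.76 and 2.39, both at the end. The pseudogene Trav11n had 2.13 and 1.93 and Trav3-4 had 1.75 and 1.94, at the start. The order of the 10 was not the same in the libraries: Trav10d ranked above Trav13n-4 in replicate 1 and below it in replicate 2.

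**Figure D1:**
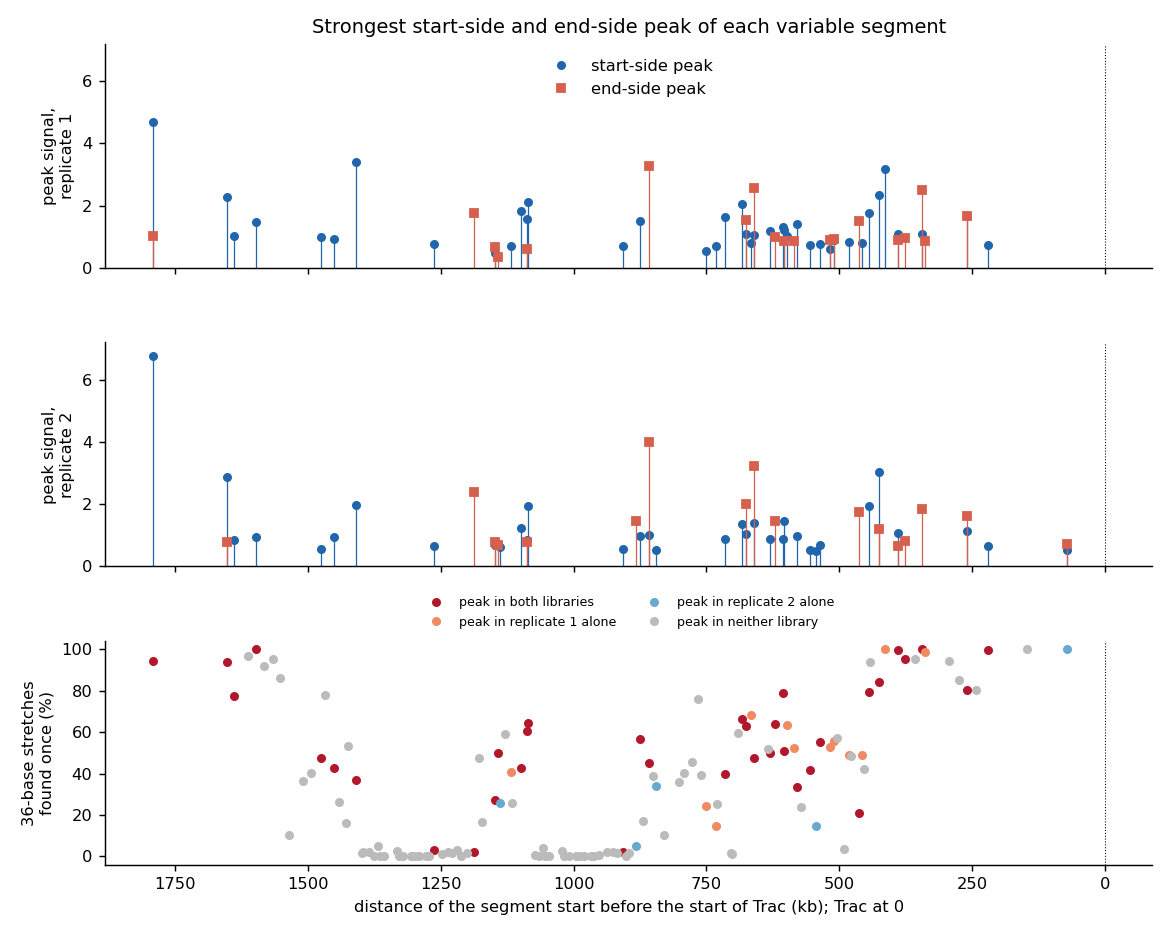
Strongest start-side (circles) and end-side (squares) peak signal of each V segment in replicate 1 (top) and replicate 2 (middle) against distance of the segment start before the start of Trac in kb, and (bottom) the share of 36-base stretches of the segment with 500 bp on each side that occur once in the genome. Trav1 at the far left is highest in both libraries, and the stretches with no peak lie largely where the share is under 10%.

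Across the 36 open segments the log2 signals of the libraries ran together (Pearson r 0.84, Spearman rho 0.87, n = 36 segments of the same 2 libraries, as a description). The strongest peaks of the libraries overlapped at 35 of the 36. Position along the locus and mean signal showed a rho of -0.04 over the same segments, so signal had no steady slope from distal to proximal. Without Trav1 and Trav2 the rho was 0.12 (n = 34).

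Peaks at V segments fell into groups before the start and just beyond the end. Divided by which end of the segment the peak centre was nearer to, a division chosen after the data were seen, 40 of 59 peaks in replicate 1 and 36 of 54 in replicate 2 were start-side. Their centres lay a median of 99 bp and 101 bp before the segment start, where V promoters are found. The 19 and 18 end-side peaks had centres a median of 28 bp and 22 bp beyond the segment end, which is where the recombination signal lies. Start-side centres ranged from -394 to 37 bp of the start in replicate 1 and from -606 to 74 bp in replicate 2. End-side centres ranged from -19.5 to 93 bp of the end and from -218 to 93 bp. The number of segments with a start-side peak in both libraries was 29, that with an end-side peak in both was 13, and 6 had both kinds in both. Start-side median signals were 1.08 and 0.91 in replicates 1 and 2, and end-side medians were 0.97 and 1.32.

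**Figure D2:**
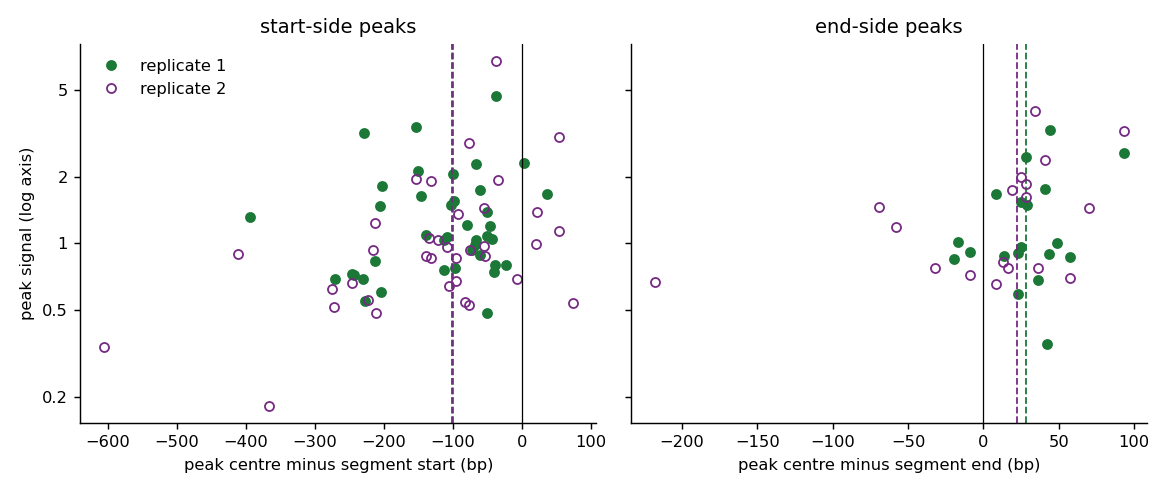
Peak signal (log axis) against the distance of the peak centre from the segment start for start-side peaks (left) and from the segment end for end-side peaks (right), in bp in the direction of transcription, with 1 point per peak. Filled points are replicate 1, open points replicate 2, and dashed lines the medians, which fall at -99 and -101 bp on the left and at 28 and 22 bp on the right.

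The 6 segments with both kinds of peak in both libraries were Trav13d-4, Trav6n-6, Trav13-1, Trav15-1-dv6-1, Trav18 and Trdv2-2. At Trav15-1-dv6-1 the end-side peak (2.58 and 3.24) exceeded the start-side peak (1.05 and 1.39) in both libraries, and at Trav13-1 the same held (1.55 and 2.00 at the end, 1.07 and 1.04 at the start). At Trav18 the start-side peak was the higher in both (1.09 and 1.06 at the start, 0.89 and 0.65 at the end). At Trav13d-4 the end-side peak was slightly the higher in both (0.68 and 0.77, against 0.48 and 0.69 at the start). At Trav6n-6 the start-side peak was the higher in both (1.57 and 0.85, against 0.59 and 0.78 at the end). At Trdv2-2 the ends were level in replicate 1 (1.67 at the end, 1.68 at the start), and the end was the higher in replicate 2 (1.63 at the end, 1.14 at the start). The same division was made at other receptor loci. At Tcrb V segments 8 start-side and 3 end-side peaks were called in replicate 1 and 9 and 2 in replicate 2, whereas at Igh V segments there were 1 and 38 in replicate 1 and 4 and 32 in replicate 2. These are counts, with no test of the difference between loci.

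The recombination signal itself was read from the genome at every segment, as the best match to heptamer and nonamer with a spacer of 22 to 24 bases, from 10 bases before to 60 bases after the segment end. In 129 of 136 segments the heptamer began within 1 base of the annotated segment end, and 127 had a spacer of 23 bases. Below, 6 signals of segments with an end-side peak in both libraries come first and 6 of segments without one in both come after them, GRCm38, plus strand, with heptamer and nonamer in capitals. Their positions are chr14:53364107-53364145 for Trav13n-4, chr14:53033420-53033458 for Trav13d-3, chr14:53757922-53757960 for Trav13-4-dv7, chr14:53560248-53560286 for Trav15-1-dv6-1, chr14:53876753-53876790 for Trav21-dv12, chr14:53961603-53961641 for Trdv2-2, chr14:52428877-52428915 for Trav1, chr14:52811497-52811535 for Trav10d, chr14:53135679-53135717 for Trav11n, chr14:53807116-53807154 for Trav17, chr14:53946661-53946699 for Trdv2-1 and chr14:54075516-54075554 for Trdv4.
Trav13n-4: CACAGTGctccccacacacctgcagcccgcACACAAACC
Trav13d-3: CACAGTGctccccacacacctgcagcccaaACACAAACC
Trav13-4-dv7: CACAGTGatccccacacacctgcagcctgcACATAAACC
Trav15-1-dv6-1: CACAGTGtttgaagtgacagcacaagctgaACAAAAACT
Trav21-dv12: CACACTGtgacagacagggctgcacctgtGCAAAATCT
Trdv2-2: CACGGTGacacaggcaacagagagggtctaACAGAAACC
Trav1: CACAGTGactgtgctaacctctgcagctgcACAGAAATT
Trav10d: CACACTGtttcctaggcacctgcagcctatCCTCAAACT
Trav11n: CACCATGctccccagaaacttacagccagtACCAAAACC
Trav17: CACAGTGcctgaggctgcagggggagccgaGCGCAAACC
Trdv2-1: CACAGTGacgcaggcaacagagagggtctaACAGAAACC
Trdv4: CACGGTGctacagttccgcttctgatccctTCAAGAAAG

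Open and other segments matched the recombination signal equally well by median. The median match was 14 of 16 letters in the 36 open segments and 14 in the 100 others. The consensus heptamer CACAGTG stood in 26 of 36 open segments and in 81 of 100 others, and in 9 of the 13 with an end-side peak in both libraries. Trdv2-1, whose signal matched 15 letters, had no peak in the shorter list of either library, while its neighbour Trdv2-2 with 14 matching letters had end-side peaks of 1.67 and 1.63. The end-side peaks called in both libraries overlapped the recombination signal at all 13 segments that had them. End-side peaks were set apart by nearness to the segment end, where the signal begins, so this overlap follows largely from that division. A footprint, a short stretch with fewer cuts than its surroundings, the mark that a bound protein can leave, overlapped the signal in both libraries at 5 of those 13 segments and at 8 of all 136. Only 1 of all 136 segments had a footprint on the heptamer itself in both libraries, and that segment was not open.

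Letters of CTCF, the protein that anchors chromatin loops, were frequent in the start-side peaks and were not found in the end-side peaks. With up to 1 mismatch in 12 letters, a tolerance added after the data were seen, 19 of 40 start-side peaks in replicate 1 (47.5%) and 14 of 36 in replicate 2 (38.9%) held a match, against 0 of 19 and 0 of 18 end-side peaks. Other peaks of chromosome 14 held one in 30.4% and 22.5%. A footprint overlapped the match by at least 1 base in 17 of the 19 and in 14 of the 14 start-side peaks. Start-side peaks had a median width of 178 bp and 164.5 bp in replicates 1 and 2. They held a median of 3 and 2.5 footprints. No share was computed for other stretches of these peaks, so the counts do not set the matches apart from them. The matches amount to 21 different sites at 21 segments, of which 20 read on the strand of the segment and 9 had no mismatch. They lay a median of 143 bp before the segment start. Because family members are copies, the 21 sites comprise 12 different strings of letters, and sites of a family are not independent.

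The 30 bases around 8 of these sites are shown to compare families, each on the plus strand of GRCm38 with the matched letters in capitals. They were chosen after their values were seen. Trav12-1, Trav9-1, Trav3-3, Trav8-2 and Trav6n-6 match without a mismatch, and Trav10d, Trav9-2 and Trav3-4 have 1. Positions are chr14:52810769-52810798 for Trav10d, chr14:53538073-53538102 for Trav12-1, chr14:53487783-53487812 for Trav9-1, chr14:53590771-53590800 for Trav9-2, chr14:53665830-53665859 for Trav3-3, chr14:53776866-53776895 for Trav3-4, chr14:53738144-53738173 for Trav8-2 and chr14:53132560-53132589 for Trav6n-6.
Trav10d: gagaagtggCCACAAGATGGCagtagcgca
Trav12-1: gaagggaaaCCAGCAGAGGGCgctgcccct
Trav9-1: ctccactggCCGCCAGAGGGCgacattgca
Trav9-2: ctcatgtggCCTCCAGAGGGCgctgctgca
Trav3-3: agaagctgtCCACTAGGGGGCagagcatca
Trav3-4: agaagctgtCCACAAGGGGGCagagcatct
Trav8-2: ctatgctcaCCACTAGATGGCagtgcctct
Trav6n-6: agctcctgtCCACCAGGGGGCgcagatgcc
Over all 136 segments, open or not, the 300 bases around the start (250 before, 50 after) held exact CTCF letters in 18 (13.2%), against 0.974% of 32851 RefSeq promoter windows of the same length. The share was 17.2% of the 29 segments with a start-side peak in both libraries and 12.1% of the 107 others. A match is a description of letters and was not measured as binding.

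**Figure D3:**
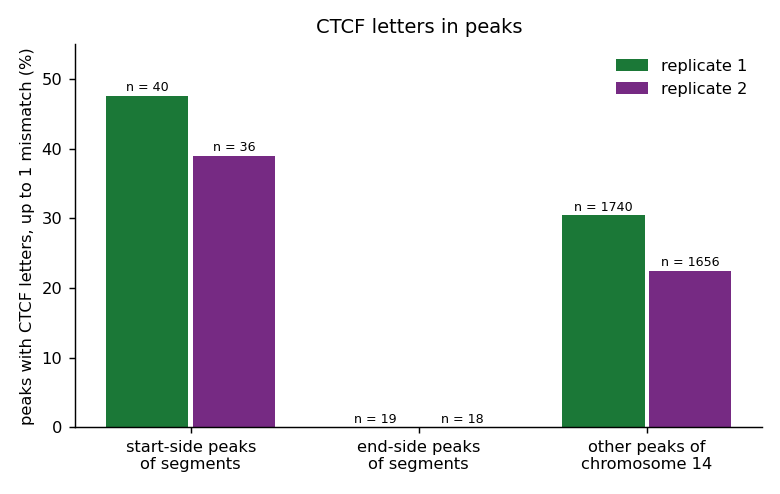
Share of peaks, in percent, that hold the CTCF letters with up to 1 mismatch on either strand, for start-side and end-side peaks of V segments and for other peaks of chromosome 14, with the number of peaks above each bar. Start-side peaks stand at 47.5% and 38.9%, end-side peaks at 0 and other peaks at 30.4% and 22.5% in replicates 1 and 2.

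Other short motifs were counted at both ends of the segment. The E-box CAGCTG, the kind of site that E proteins such as E2A and HEB bind, occurred in the start window of 16 of 29 segments with a start-side peak in both libraries (55.2%) and of 29 of 107 others (27.1%), against 16.3% of RefSeq promoters. In the 300 bases around the segment end (100 before, 200 after) it occurred in 11 of 13 segments with an end-side peak in both (84.6%) and in 63 of 123 others (51.2%). The GATA letters AGATAA were present at the end of 6 of those 13 (46.2%) and of 18 of 123 others (14.6%), and at the start of 24.1% of segments with a start-side peak in both and 11.2% of the others, against 11.2% of RefSeq promoters. Of those 6, all but Trav19 belong to the Trav13 family, whose members are copies and not independent. The letters were also at the end of Trav13d-1, Trav13d-2, Trav13n-1, Trav13n-2, Trav13n-3, Trav13-2 and Trav13-3, which had no end-side peak in both libraries. A like limit holds for CAGCTG. Its 11 segments at the end include Trav13d-3, Trav13d-4, Trav13n-4, Trav13-1 and Trav13-4-dv7, and the Trav13 segments just named without such a peak carry it there too. Its 16 segments at the start include the copies Trav10, Trav10d and Trav10n. The cAMP response element TGACGTCA and the octamer ATGCAAAT, which is known from immunoglobulin V promoters, were in none of the 136 start windows, against 1.79% and 1.74% of RefSeq promoters. TATAAA stood in 23.5% of the start windows and in 13.6% of RefSeq promoters. The RUNX letters TGTGGT were in 31.0% of start windows of segments with a start-side peak in both, in 30.8% of the others and in 16.8% of RefSeq promoters. The E-box CAGGTG was in 19.1% of start windows, against 20.2% of RefSeq promoters. It was in 55.9% of end windows (69.2% of those of segments with an end-side peak in both, 54.5% of the others). End windows take in segment sequence and the recombination signal, so RefSeq promoters are not a like background for them. In Trav13n-4 the CAGGTG letters lie in the spacer of the recombination signal, on the minus strand. ETS GGAAGT was in 19.9% of start windows and 12.5% of end windows, against 23.8%. At the end, RUNX letters were in 40.4% and TATAAA in 10.3%, and the cAMP response element and the octamer in none of the 136. All motifs were searched on both strands, and CAGCTG reads the same on both.

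Open segments were most numerous in the part of the locus nearest to the constant region. Ranked by start and divided into 3 equal parts, the distal part, farthest from the constant region, held 9 open of 45 segments, the middle part 8 of 45 and the proximal part 19 of 46. The 5 open segments farthest from Trac were Trav1, Trav2, Trav3-1, Trav5-1 and Trav7d-3, the last 1476.27 kb before it. Trav3-1 had 1.04 and 0.86, Trav5-1 1.48 and 0.93 and Trav7d-3 0.98 and 0.54 in replicates 1 and 2. The 5 nearest were Trav18 (1.09 and 1.06), Trav19 (0.97 and 0.82), Trav21-dv12, Trdv2-2 and Trdv3, the last 219.562 kb before Trac. Both ends of the locus therefore held open segments, and long runs without any peak lay between them.

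The longest of these runs lay in repeated DNA, and others lay in partly repeated DNA. The share of 36-base stretches of a segment and its flanks that occur once in the genome had a median of 3.30% in the distal, 4.86% in the middle and 58.3% in the proximal segments. The longest runs of segments with no peak in either library were 19 segments over 155.641 kb (Trav7n-5 to Trav4n-4) and 17 over 127.248 kb (Trav6d-6 to Trav14d-2), and every one of these 36 segments had under 10% of stretches found once. Of the 3 other runs of at least 5 segments, each of 6, that from Trav3d-3 to C920008G01Rik was likewise all under 10%. The runs from Trav6-1 to Trav6d-3 (88.405 kb, median 63.1%) and from Trav7-2 to Trav7-4 (71.104 kb, median 39.8%) held no segment under 10%. They were mixed: Trav7d-2 in the former had 10.2% and Trav7-2 in the latter 10.3%, while the highest shares were 95.1% and 76.1%. Of the 51 segments below 10%, 3 were open and 47 had no peak in either library, and 44 had no base listed in either library's list of significant bases. From 10% to under 50% there were 12 open of 39, from 50% to under 90% 14 of 29, and at 90% or more 7 of 17. Whether reads that fit several places were kept is not given in the sources used here, and the part of repeated sequence in the missing peaks was not tested. Among the 46 segments with 50% or more, a limit chosen after seeing the data, the open ones numbered 4 of 10 in the distal, 3 of 5 in the middle and 14 of 31 in the proximal part, so the proximal share was not the highest there.

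**Figure D4:**
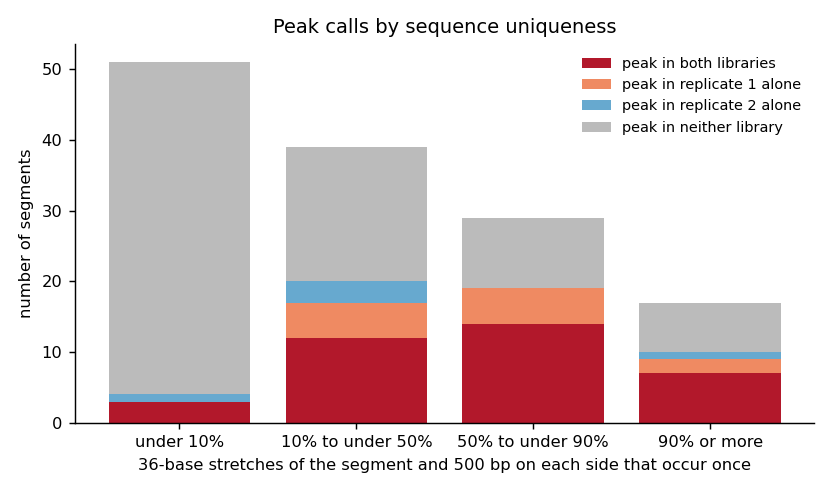
Number of V segments by the share of 36-base stretches that occur once in the genome, divided by where a peak was called. Below 10% nearly all segments had no peak in either library (47 of 51), while 14 of 29 were open at 50% to under 90%.

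Low uniqueness did not always go with a missing peak, nor high uniqueness with a peak. Trav13d-3, at 2.34%, had end-side peaks of 1.76 and 2.39, and 18.5% of the stretches inside that peak occur once. Trav15d-2-dv6d-2, at 3.35%, had 0.76 and 0.64. In the other direction, Trav20 (95.3%), Trav22 (94.3%) and Trdv4 (100%) had no peak in either list of either library. These segments were singled out after their values were seen, apart from those of the naming rule.

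Much of the locus arose by duplication, and the d and n copies of the reference genome carry that letter in their names. Copies and uniqueness were read from the reference genome alone, and the CAST chromosomes of these mice were not examined for either. The shares open were 7 of 40 d copies, 6 of 34 n copies and 23 of 62 segments without a suffix, whose median shares of stretches found once were 2.39%, 1.98% and 61.1%. Of 32 sets with 3 copies, 12 had no open copy, 18 had 1 and 2 had all 3. The 2 complete sets were Trav10 and Trav13-4. Trav10d had 3.41 and 1.96 in replicates 1 and 2, Trav10n 1.83 and 1.24 and Trav10 1.65 and 0.88, all at the start and each with the CTCF letters CCACAAGATGGC. Trav13d-4 had 0.68 and 0.77, Trav13n-4 3.28 and 3.99 and Trav13-4-dv7 1.49 and 1.76, each from its end-side peak.

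The Trav11 set shows how calls fell within copies. Trav11 provides the alpha chain V region of the invariant receptor of natural killer T cells. Trav11 and Trav11d had no peak in either library, and their 300-base start windows are identical, with 1.38% and 2.37% of stretches of the segment and flanks found once. Trav11n, annotated as a pseudogene, is 89.7% identical to them in that window, has 64.3% of stretches found once, and had start-side peaks of 2.13 and 1.93 (chr14:53134861-53135080 in replicate 1). The part of repeated sequence in this contrast was not tested.

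Segments shared by both chains were open more often than the others by count, on few members. Of the Trav-dv segments 6 of 10 were open (exact 95% interval 26.2% to 87.8%), of the Trav segments 28 of 120 (16.1% to 31.9%) and of the Trdv segments 2 of 6 (4.33% to 77.7%). The intervals overlap between Trav-dv and Trav, and the difference was not tested. The classes differed in their median share of stretches found once: 26.8% in Trav, 35.7% in Trav-dv and 99.1% in Trdv. Among segments with 50% or more, the limit chosen after seeing the data, 17 of 37 Trav, 2 of 3 Trav-dv and 2 of 6 Trdv were open. There the Trav share was above that of Trdv. Counting only peaks within 500 bp of the segment start left 3 of 10 Trav-dv segments. Among the Trav-dv segments, Trav15-1-dv6-1 and Trav21-dv12 had the strongest signal, given above. Trav13-4-dv7 had 1.49 and 1.76 and Trav14d-3-dv8 0.35 and 0.70 in replicates 1 and 2, both at the end. Trav4-4-dv10 had 0.77 and 0.67 and Trav15d-2-dv6d-2 0.76 and 0.64, both at the start. Trav6-7-dv9 had a peak in replicate 1 alone (0.91), and in the longer list 0.71 in replicate 2. Trav15d-1-dv6d-1, Trav16d-dv11 and Trav15-2-dv6-2 had none in either list, at 0%, 16.5% and 23.9% of stretches found once.

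The Trdv segments are mostly unique sequence, with 80.4% to 100% of stretches found once. Trdv2-2 (chr14:53960944-53961602) was open at both ends, with 1.68 and 1.14 at the start and 1.67 and 1.63 at the end in replicates 1 and 2. The start of the antisense gene Gm43647 also lies within 500 bp of it. The pseudogene Trdv3 had 0.72 and 0.66, from a peak centred at -246.5 bp from its start. Trdv1 had an end-side peak in replicate 1 alone (0.87), and the longer list of replicate 2 held 0.67 at that end and 0.70 at the start. Trdv5, which lies beyond the constant region of delta in opposite orientation and rearranges by inversion, had 4 peaks in replicate 2 (highest 0.72) and none in either list of replicate 1. Trdv2-1 had only a peak of the longer list, in replicate 2 (0.56), and Trdv4 had none.

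Pseudogenes were open in 3 of 21 cases, against 33 of 115 genes. Among segments with 50% or more of stretches found once, they were open in 3 of 8 cases, against 18 of 38 genes. The difference was not tested. The 3 open pseudogenes were Trav11n, Trdv3 and Trav5-2, the last with 1.32 and 0.89 in replicates 1 and 2. All 3 had start-side peaks and none an end-side peak in both libraries. As for recombination signals, the consensus heptamer stood in 11 of 21 pseudogenes and 96 of 115 genes, with median matches of 13 and 14 letters.

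By family, among those with at least 4 segments, Trav13 had the highest share open, 6 of 13 (46.2%), and 5 of these 6 had an end-side peak in both libraries. Trav6 had the lowest, 1 of 15 (6.67%), that 1 being Trav6n-6. The other families of that size ranged from 1 of 11 (Trav9) to 3 of 8 (Trav3). The median share of stretches found once was 4.86% in Trav13 and 40.2% in Trav6. Within Trav13, the 5 segments with no peak in either library had 0% to 4.86%, and 5 of the 6 open ones had 20.8% to 84.0%, the exception being Trav13d-3 at 2.34%.

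Peaks in only 1 library were at 17 segments, 12 in replicate 1 and 5 in replicate 2. The strongest was Trav17, with a start-side peak of 3.19 in replicate 1 (chr14:53806321-53806500) and no peak in the shorter list of replicate 2. The longer list of replicate 2 held 0.95 there. Trav13n-3 had 1.47 in replicate 2, at its end, and 0.92 in the longer list of replicate 1. Trav12-3 had 1.04 in replicate 1 and 0.97 in the longer list of replicate 2. Trav5-4 had 0.90 in replicate 1 and none in either list of replicate 2. Of the 12 segments called in replicate 1 alone, 10 had a peak in both libraries' longer lists, and of the 5 called in replicate 2 alone, 3 did.

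Signals of open segments were also compared between the libraries by end. Relative to the median log2 ratio of replicate 2 over replicate 1 of all paired peaks of the genome (-0.17, SD 0.44 over 37494 pairs), start-side peaks had a median of -0.10 with 12 of 29 above 0, and end-side peaks a median of 0.46 with 10 of 13 above 0. With 1 library on each side of the ratio there is no replicate of this difference and no test. The 5 open segments with the widest ratios of their strongest peak were Trav14d-3-dv8 at 1.17, Trav10 at -0.73, Trav4-3 at 0.71, Trav1 at 0.70 and Trav6n-6 at -0.70. Trav4-3 had 1.00 and 1.45 at its end and Trav6n-6 1.57 and 0.85 at its start in replicates 1 and 2.

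**Figure D5:**
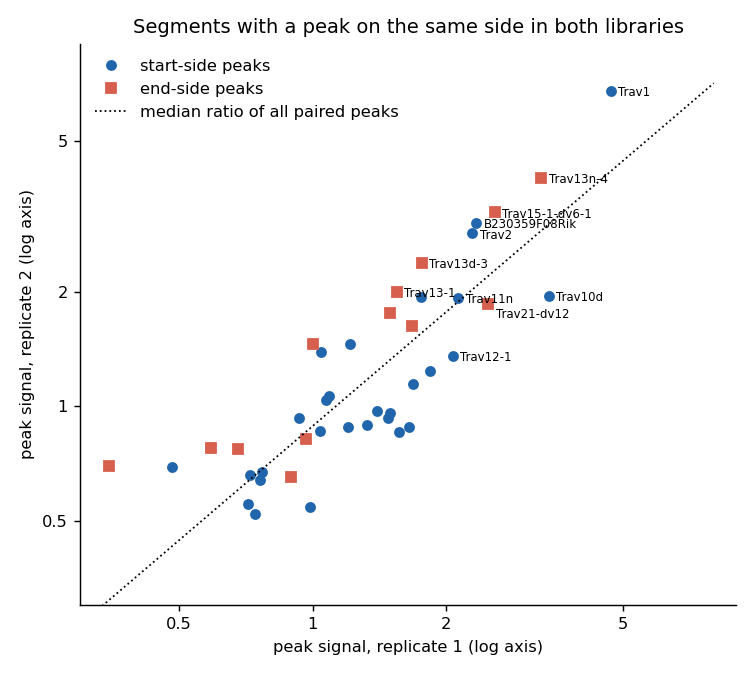
Peak signal in replicate 2 against replicate 1 (both log axes) for segments with a peak on the same side in both libraries, with circles for start-side and squares for end-side peaks. The dotted line is the median ratio of all paired peaks of the genome; 10 of 13 end-side peaks and 12 of 29 start-side peaks lie above it.

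Footprints widened the set of marked segments. A footprint of both libraries lay within 500 bp of 51 of 136 segments (37.5%), against 2.57% of genome windows, and all 36 open segments were among them. The other 15 segments had footprints in both libraries without being open in both. Of these 15, 9 had a peak of the shorter list in replicate 1 alone, 3 in replicate 2 alone and 3 in neither library. In all, 207 footprints in replicate 2 and 210 in replicate 1 lay near segments. No footprint and no peak in either library was found at 73 segments. The longer peak list raised the count to 54 segments with a peak in both libraries (39.7%), against 2.97% of genome windows. For footprints and the longer list no share of other genes is given. By the shorter list that share was 31.6%, above the 26.5% of the segments.

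The recombination machinery and its known regulators were largely open in the same tissue. Of 28 genes of V(D)J recombination and its control at the locus, 24 had a peak within 500 bp of the annotated start in both libraries. By that same rule 24.2% of all other annotated genes, of every type, and 21.3% of the V segments did. No share of protein-coding genes alone is given, so the count does not set these genes apart from other protein-coding genes. Rag1 had 6.17 and 6.76 and Rag2 4.72 and 5.10 in replicates 1 and 2, and Ctcf had 10.6 and 9.80. Dntt, which adds bases at the joins, and Gata3 had a peak at the annotated start in replicate 2 alone, and Xrcc6 and Ets1 had none there in either library. At the far side of the locus, 1 of 60 Traj segments, 0 of 2 Trdj, 0 of 2 Trdd and 0 of 1 Trac had a peak within 500 bp of the segment in both libraries, and Trdc did.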

How the data were processed

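DNase-seq of 2 thymus libraries was analysed from the files as deposited, which were made per library on mm10 per the labels. Aligner, peak caller and thresholds are not given in the sources available for this work, nor is the handling of reads that fit several places. Peak signal is the authors' value, on no stated scale. Footprints carry a constant score of 0.01 as deposited, so only positions were used. The q-value lists deposited by the authors hold only bases at or below 0.05.

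Members and lists were chosen with earlier results of these data known. Of the 2 peak lists per library, the shorter served as the main one. Genes came from GENCODE M21 and sequence from GRCm38, which share chromosome lengths with mm10. Peaks, footprints and listed bases within 500 bp of each segment were counted with Python 3.11.15, pandas 2.3.3 and numpy 2.4.6, with exact binomial intervals at 95% from scipy 1.17.1. These intervals cover counting of segments only. No test was run, since there is 1 group, and segments are not replicates. Named segments were the 10 with the highest mean signal, all Trdv and Trav-dv, the 5 open ones nearest to and farthest from Trac, the 5 with the widest ratio between libraries, open pseudogenes, and up to 5 called in 1 library alone. Overlap counting and k-mer counting were tested on simulated data, and the motif search was not. Windows of 0, 250 and 1000 bp, the longer list, stricter calls and each library alone were tried as alternatives. The recombination list is given without 1 gene that is not reported here.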

Additional observations from a re-analysis of the deposited data

How the results depend on the processing

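No paired analysis was possible because there is 1 group of 2 libraries. Open segments numbered 36 of 136, and 41 to 48 with a single library. The count was 20 where the peak had to overlap the segment itself (0 bp), 11 with peaks at or above the library's median signal, 7 among the 17 segments with at least 90% of 36-base stretches unique, and 21 among the 46 with at least 50%, a limit chosen after seeing the data. By position, the distal count of 9 became 4, 4, 3 and 4 under these settings in that order. The middle count of 8 became 3 at 0 bp, 2 with the stronger peaks, 3 among segments at least 50% unique, 13 with the longer list and 13 with the spanned length cut into 3 equal parts (60 segments), and no middle segment was at least 90% unique. The proximal count of 19 became 30 with the longer list, 5 with the stronger peaks and 4 among the 90% unique. The Trav count of 28 became 16, 8, 5 and 17 in the order of the opening settings, and to 44 with the longer list. Trav-dv (6) became 3 at 0 bp, 3 with 500 bp around the start, 2, 1 and 2. Trdv (2) became 1 at 0 bp, with the stronger peaks and among the 90% unique. Genes (33) became 20, 10, 6 and 18. Pseudogenes (3) became 0 at 0 bp, 6 with the longer list, 1 with the stronger peaks, 1 among the 90% unique and 5 with either library alone. Footprints in both libraries (51) became 8 among the 17 segments 90% unique. The nearest peak centre lay at -73.5 bp from the start, and at -85.4 bp with the longer list. The 50% and 90% limits leave fewer segments by construction. With 76-base stretches the median uniqueness was 62.1% in place of 34.9%. The distal count, 9 against 8 in the middle, was the lower with the longer list (11 against 13), with equal parts of the spanned length (8 of 39 against 13 of 60 segments) and with either library alone (9 against 11). The distance of the nearest peak centre kept its negative sign under every setting tried for it. Depth is unknown, so a missing peak is a peak not called at this depth.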

Other observations

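Between Trav1 and Trdv4 (1648.59 kb), peaks of the shorter list kept close to the segments. In replicate 1, 59 of 79 peaks (74.7%) and in replicate 2, 50 of 66 (75.8%) lay within 500 bp of a segment, while these windows take up 12.7% of the length. The strongest peak outside them was at chr14:53935961-53936220 in replicate 1, with a signal of 3.67, and at chr14:53935941-53936220 in replicate 2, with 3.69. It lies 8365 bp from Trav22, a segment without a peak of its own, and its signal exceeded those of all but Trav1 among the segments in replicate 1 and all but Trav1 and Trav13n-4 in replicate 2. A peak 3002 bp from Trav12-1 had 2.36 in replicate 1 and 1.42 in replicate 2.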
